A study of Arabidopsis thaliana with 12 samples.

Results

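The type-A response regulators are a family of small proteins that answer to the plant hormone cytokinin. The 10 members described here are ARR3, ARR4, ARR5, ARR6, ARR7, ARR8, ARR9, ARR15, ARR16 and ARR17 of Arabidopsis thaliana, taken by gene identifier from 22028 genes listed in at least 1 RNA library. The series holds 12 samples in 4 groups of 3. RNA was measured in seedlings of an estradiol-inducible line labelled GFP:BRC1ind (the induced line) and in brc1-2 knock-out seedlings. Both sets of seedlings carry the label of 10 uM estradiol, were 10 days old and were harvested after 5 hours. Anti-GFP chromatin immunoprecipitation (ChIP-seq) libraries and Input libraries came from the induced line under the same treatment. The induced line carries a GFP fusion of BRC1 (BRANCHED1), a TCP transcription factor known for holding axillary buds dormant, and the promoter and genetic background of the transgene are not given in the sources used here. Genotype and transgene therefore change together between the RNA groups, and untreated seedlings of the induced line were not analysed here. The labels do not say whether replicates were grown separately, so the p-values measure the spread between these libraries, which may be technical.

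Cytokinin is perceived by membrane-bound histidine kinases (the AHK receptors), which pass a phosphate through histidine phosphotransfer proteins (AHPs) to response regulators in the nucleus. Type-B response regulators are transcription factors, and the type-A genes are among their best known direct targets: their transcripts rise within minutes of cytokinin treatment. Type-A proteins carry the phosphate-receiving domain but no DNA-binding domain, and they dampen cytokinin signalling in a negative feedback loop. In shoots, cytokinin promotes the outgrowth of axillary buds. Most type-A genes come in closely related pairs, namely ARR3 with ARR4, ARR5 with ARR6, ARR7 with ARR15, ARR8 with ARR9, and ARR16 with ARR17. How reads shared by such relatives were assigned is not given in the sources used here, so a small exchange of signal within a pair cannot be seen.

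Type-A transcripts were lower in the induced line. The summed level of the members was 148.5, 141.1 and 170.4 FPKM (fragments normalised for assembled length and sequencing depth) in induced libraries 1, 2 and 3, and 287.0, 230.2 and 224.0 FPKM in brc1-2 libraries 1, 2 and 3. Every induced library was below every brc1-2 library, with means of 153 ± 15.2 and 247 ± 34.7 FPKM (SD, n = 3 each), so the induced sum was 62.1% of the brc1-2 sum. Of the 10 members 9 were listed and tested, and 5 of them, ARR4, ARR5, ARR6, ARR7 and ARR8, fell (adjusted p under 0.05 in limma, over 21038 genes), while none rose. At an unadjusted limma p under 0.05 there were 7 lower members and 0 higher ones, and voom on the derived fragment numbers called 6 lower and 0 higher. Voom also called more of all tested genes, 4438 in either direction beside 3413 in the main limma fit. At the adjusted threshold in limma, 8.86% of all tested genes fell and 7.37% rose. The unadjusted cut is much wider: at least 6186 of the 21038 tested genes had a limma p under 0.05, in either direction. In 7 of the 9 members every induced library was below every brc1-2 library, as in 18.1% of all tested genes. The median log2 change of the 9 tested members was -0.67, beside 0.04 over all tested genes and -0.76 over the genes that fell. A gene counted as tested when it reached an FPKM of 1 in at least 3 of the 6 libraries, and ARR3 reached that only through its brc1-2 libraries, so it adds nothing to these summaries as support. In whole seedlings, fewer cells that express a gene and less of its RNA per cell cannot be told apart.

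**Figure D1:**
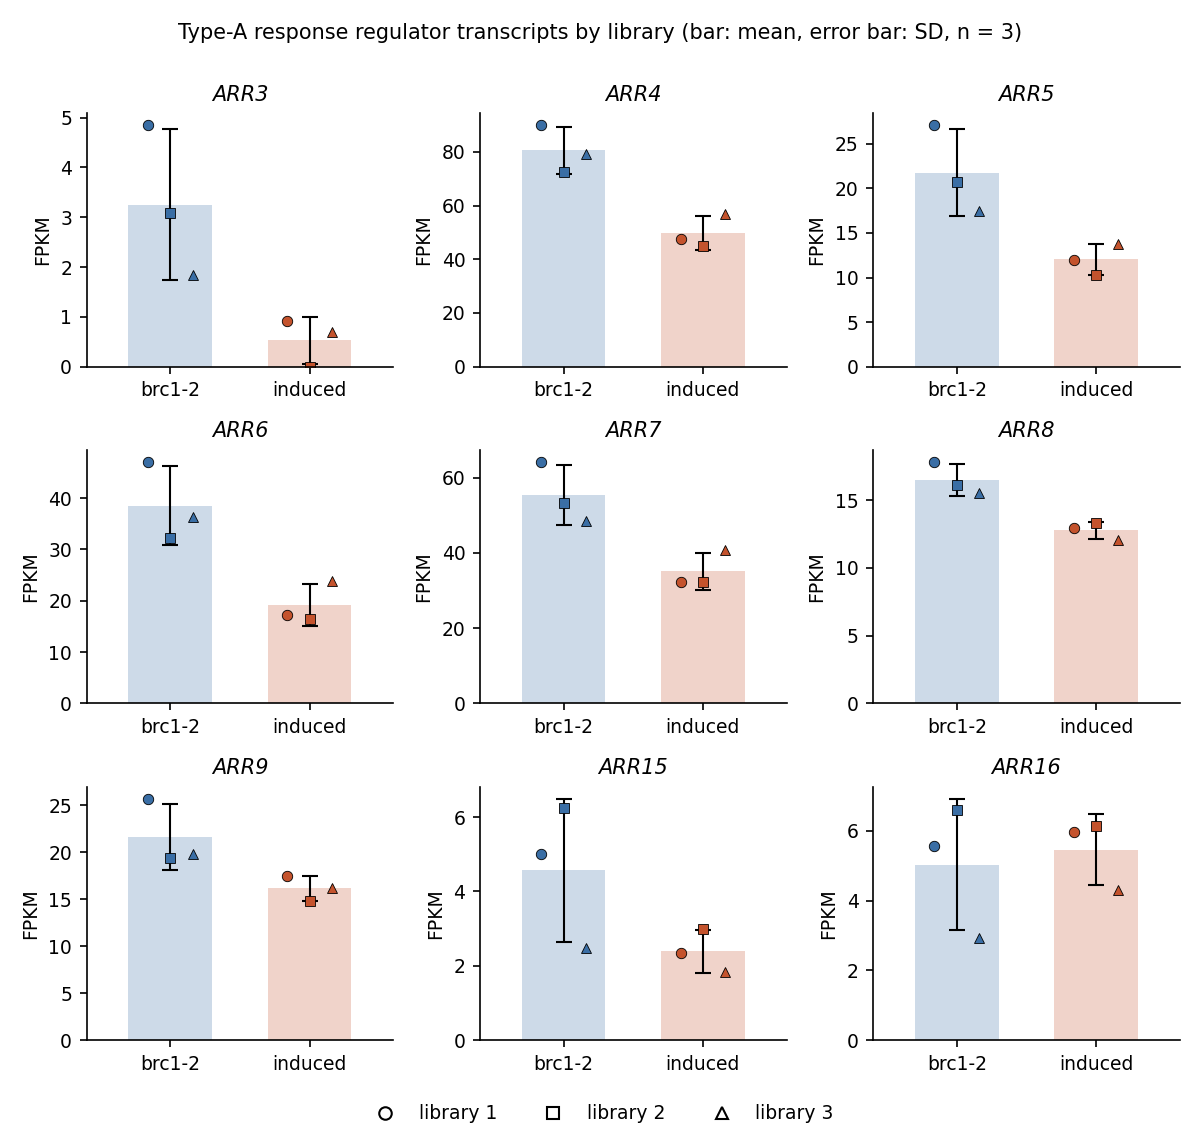
FPKM of the 9 listed type-A genes in each RNA library (vertical axis, from 0, scaled per gene), with brc1-2 in blue and the induced line in orange; bars are means, error bars SD (n = 3), and circles, squares and triangles are libraries 1, 2 and 3. All 3 induced points lie below all 3 brc1-2 points for 7 genes, and the groups overlap for ARR15 and ARR16.

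The count of falls rested on the full set of libraries. Without induced library 1 or induced library 2 none of the members passed the threshold, without brc1-2 library 1 or brc1-2 library 2 there were 2, without induced library 3 there were 3 and without brc1-2 library 3 there were 5. At an unadjusted limma p under 0.05, 7 members were lower without induced library 1 and 6 without induced library 2. Both counts include ARR3. The share of all genes under that cut is not given for these fits, so the counts cannot be weighed against a background. Calls over all genes dropped in the same fits, from 3413 to between 1609 and 2827. The log2 change of every tested member other than ARR16 stayed below 0 in each of the 123 alternative fits in which it could be computed, other scalings included. All of these refit the same 6 libraries. For the 7 members with separate groups, leaving out a library could not change the sign, so those fits add no support for the direction. A two-sided exact permutation test of 3 against 3 values cannot go below 0.1, which is the value each gene with separate groups reached.

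**Figure D2:**
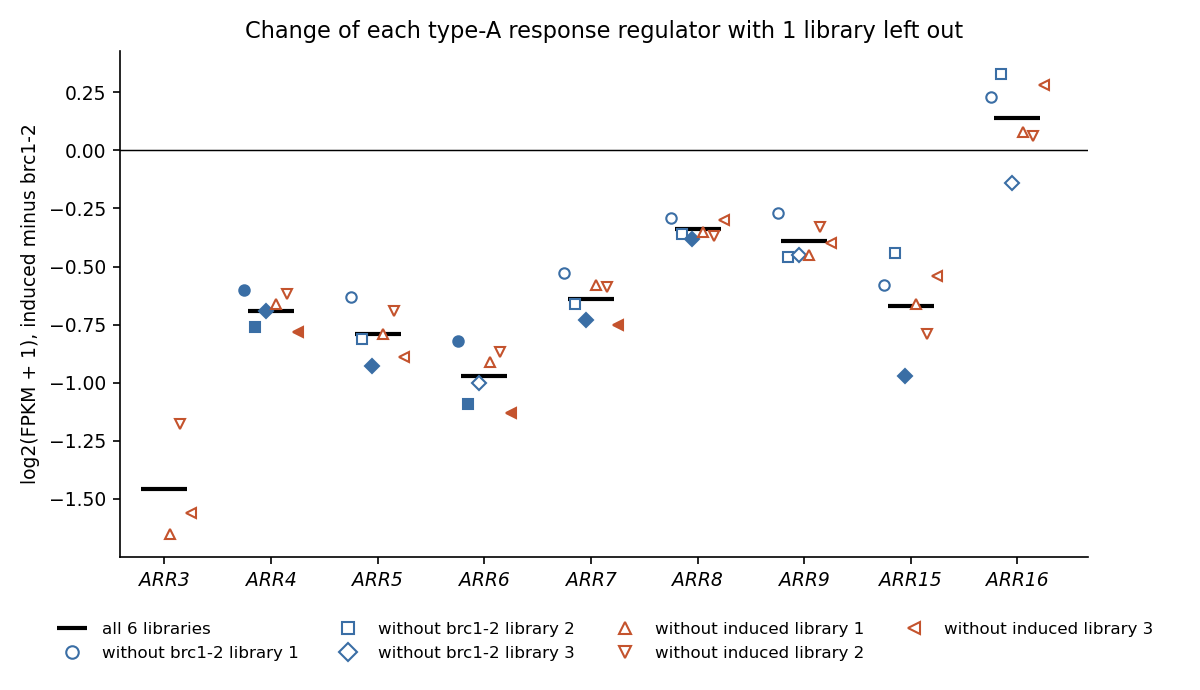
Change of each tested type-A gene (vertical axis, log2(FPKM + 1), induced minus brc1-2) with all 6 libraries (black bar) and with 1 library left out (blue: a brc1-2 library, orange: an induced library; filled where the limma adjusted p is under 0.05). Points for ARR4 to ARR15 stay below 0, ARR16 lies on both sides of it, and ARR3 has 3 points because without a brc1-2 library it is not past the filter.

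Library 1 of brc1-2 had the highest value of its group for 7 of the 9 listed members, including each of the 5 that fell, and brc1-2 library 3 had the lowest for 6. Among the induced libraries, library 3 was the highest for 4 of the 5 that fell. The number of fragments behind these values was derived from the deposited confidence bounds. It came to between 33176994 and 53385759 per library, with induced library 3 and brc1-2 library 1 the deepest of their groups. Whether depth had a part in these differences was not tested. The gene that the labels name, BRC1 (AT3G18550), had a mean of 3472 ± 135 FPKM in the induced line and 1.73 ± 0.43 in brc1-2.

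ARR4 (AT1G10470; chromosome 1, 3442327 to 3443957) was the most abundant member in both groups. It is known to bind phytochrome B, the red-light receptor. Its level was 47.5, 44.9 and 56.9 FPKM in induced libraries 1, 2 and 3 and 89.8, 72.5 and 79.2 FPKM in brc1-2 libraries 1, 2 and 3. The groups stood well apart, with at least 1593 derived fragments in each library. The mean fell from 80.5 ± 8.76 to 49.7 ± 6.31 FPKM (SD, n = 3 each), 0.618 times the brc1-2 level. The log2 change, which here and below is on the log2(FPKM + 1) scale and so understates the change of low genes, was -0.69 (SE 0.12, limma adjusted p = 0.0154). It ranged from -0.78 to -0.60 when 1 library was left out, and the call was lost without induced library 1 or 2. ARR3 (AT1G59940; chromosome 1, 22065617 to 22066973), its closest relative, was the least abundant listed member. Its level was 0.909, 0 (not listed) and 0.687 FPKM in induced libraries 1, 2 and 3 and 4.84, 3.07 and 1.84 FPKM in brc1-2 libraries 1, 2 and 3. These rest on 12 and 14 derived fragments in the 2 induced libraries that list it and on 179, 73 and 53 in brc1-2, and no library lists a piece of fewer than about 10. The groups did not overlap, but the log2 change of -1.46 (SE 0.39) was just short of the threshold (limma adjusted p = 0.0535). It passed with both other scalings of the FPKM, with length-weighted pieces and without a trend in the fit, and its limma adjusted p ranged from 0.0352 to 0.156 over 12 alternatives.

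ARR5 and ARR6 both fell, with larger fitted changes than ARR4, although the difference between genes was not tested. ARR5 promoter fusions are widely used to report cytokinin output, and both genes are known targets of repression by WUSCHEL, the stem cell regulator of the shoot apex. ARR6 (AT5G62920; chromosome 5, 25252386 to 25254212) had 17.3, 16.4 and 23.8 FPKM in induced libraries 1, 2 and 3 and 47.0, 32.3 and 36.4 FPKM in brc1-2 libraries 1, 2 and 3. Its highest induced value lay below its lowest brc1-2 value, and its mean fell from 38.5 ± 7.62 to 19.2 ± 4.07 FPKM, 0.497 times the brc1-2 level. The log2 change of -0.97 (SE 0.19, limma adjusted p = 0.0215) was the largest among the members that fell. Its call was lost without induced library 1, induced library 2 or brc1-2 library 3, with log2 changes from -1.13 to -0.82 in the fits that left out 1 library. ARR5 (AT3G48100; chromosome 3, 17758427 to 17760874) had 12.0, 10.3 and 13.8 FPKM in the induced libraries and 27.1, 20.7 and 17.5 FPKM in the brc1-2 libraries, in the order 1, 2 and 3. The groups did not overlap, and the highest induced value and the lowest brc1-2 value both came from library 3. Its log2 change was -0.79 (SE 0.18, limma adjusted p = 0.0332). The call held without brc1-2 library 3 and was lost without any 1 of the other libraries, with log2 changes from -0.93 to -0.63.

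ARR7 and ARR15, which are known for their part in the shoot meristem and the embryonic root, differed widely in level and in how firmly their change was measured. ARR7 (AT1G19050; chromosome 1, 6577833 to 6579178) had 32.2, 32.3 and 40.8 FPKM in induced libraries 1, 2 and 3 and 64.1, 53.4 and 48.4 FPKM in brc1-2 libraries 1, 2 and 3. The groups did not overlap, and the mean fell from 55.3 ± 8.03 to 35.1 ± 4.91 FPKM, 0.635 times the brc1-2 level. The log2 change was -0.64 (SE 0.14, limma adjusted p = 0.0304), and the call held without induced library 3 or brc1-2 library 3 but not without any 1 of the others. ARR15 (AT1G74890; chromosome 1, 28131590 to 28132710) had 2.35, 2.99 and 1.83 FPKM in the induced libraries and 5.0, 6.24 and 2.47 FPKM in the brc1-2 libraries, from between 34 and 112 derived fragments each. Here brc1-2 library 3 lay among the induced values. The log2 change of -0.67 (SE 0.30, 95% interval -1.41 to 0.08) missed the threshold (limma adjusted p = 0.204). It passed without brc1-2 library 3 alone among its alternatives, with a log2 change of -0.97 (limma adjusted p = 0.0421).

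ARR8 and ARR9 showed the smallest differences among the members whose groups did not overlap. ARR8 (AT2G41310; chromosome 2, 17221933 to 17224427) had 12.9, 13.3 and 12.1 FPKM in induced libraries 1, 2 and 3 and 17.8, 16.1 and 15.5 FPKM in brc1-2 libraries 1, 2 and 3. Its libraries agreed closely within each group, with means of 12.8 ± 0.657 and 16.5 ± 1.2 FPKM, so that a log2 change of -0.34 (SE 0.08) was past the threshold (limma adjusted p = 0.0344). The call was lost without any 1 library other than brc1-2 library 3, with log2 changes from -0.38 to -0.29. ARR9 (AT3G57040; chromosome 3, 21109614 to 21111432) had 17.4, 14.8 and 16.2 FPKM in the induced libraries and 25.7, 19.4 and 19.8 FPKM in the brc1-2 libraries. Its groups did not overlap either, and brc1-2 library 1 stood above the other two of its group. The log2 change of -0.39 (SE 0.13, 95% interval -0.70 to -0.08) was not past the threshold after adjustment (limma adjusted p = 0.0932), and it was -0.27 without brc1-2 library 1.

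No fall was measured for ARR16 or ARR17. ARR16 (AT2G40670; chromosome 2, 16970230 to 16971234) had 5.96, 6.14 and 4.29 FPKM in induced libraries 1, 2 and 3 and 5.57, 6.59 and 2.93 FPKM in brc1-2 libraries 1, 2 and 3. The groups overlapped, and library 3 was the lowest in both. The log2 change was 0.14 (SE 0.27, limma adjusted p = 0.768), and its 95% interval of -0.53 to 0.81 includes falls of the size fitted for ARR8 and ARR9, while the changes fitted for the other tested members lie below it. Without brc1-2 library 3 the log2 change was -0.14. ARR17 (AT3G56380; chromosome 3, 20905480 to 20906368), whose poplar counterpart is known for a role in sex determination, was not listed in any of the 6 libraries. No difference could be measured for it.

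The order of the levels, which FPKM allows because it is scaled to length, was nearly the same in both groups. In brc1-2 it ran ARR4, ARR7, ARR6, ARR5, ARR9, ARR8, ARR16, ARR15 and ARR3, from 80.5 to 3.25 FPKM. The ranges over the 3 libraries overlapped between ARR5 and each of ARR9 and ARR8, and among ARR16, ARR15 and ARR3. So ARR5 is not ordered against ARR9 or ARR8, nor are ARR16, ARR15 and ARR3 among themselves. In the induced line ARR5 stood in position 6, behind ARR9 and ARR8, with 12.0 ± 1.74 FPKM against 12.8 ± 0.657 for ARR8. The ranges of ARR5 and ARR8 overlapped in both groups, so no change of order between them was shown. The ranges of ARR6 and ARR9 also overlapped there. ARR4 and ARR7 together made up between 53.6% and 57.3% of the family's summed FPKM in every library, and ARR4 alone gave 32.4 ± 0.87% in the induced line and 32.7 ± 2.29% in brc1-2. ARR6 gave 12.4 ± 1.37% in the induced line and 15.5 ± 1.33% in brc1-2, and ARR9 10.6 ± 1.11% and 8.73 ± 0.28%.

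By ChIP-seq, several of the lower genes lay beside peaks of the GFP-BRC1 fusion. The deposited list gives the start and end of 4227 peaks with no score and, by its name, intersects the peaks of anti-GFP libraries 1 and 2, so the spread between libraries cannot be given. A peak midpoint lay within 1000 bp of the annotated locus of 6 of the 10 members, beside 16.3% of the tested genes that have a position. The count was 3 of 10 within 500 bp, beside 11.9%, and 3 of 10 within 1000 bp when peaks narrower than the median were left out, beside 8.32%. Within 3000 bp it was 7 of 10, beside 27.7%, and inside the locus 2 of 10, beside 2.43%. ARR4 and ARR8 each had 2 peak midpoints within 1000 bp, where 1.82% of the tested genes with a position had at least 2. Of the 5 members that fell, ARR4, ARR5, ARR7 and ARR8 had a peak within 1000 bp, and ARR6, the one with the largest fall, had none within 3000 bp. Over all tested genes with a position, 1.39% both fell and had a peak within 1000 bp. Peaks lay within 1000 bp of 15.8% of the genes that fell and 44.9% of the genes that rose, so a nearby peak was not a general mark of falling genes in these data.

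**Figure D3:**
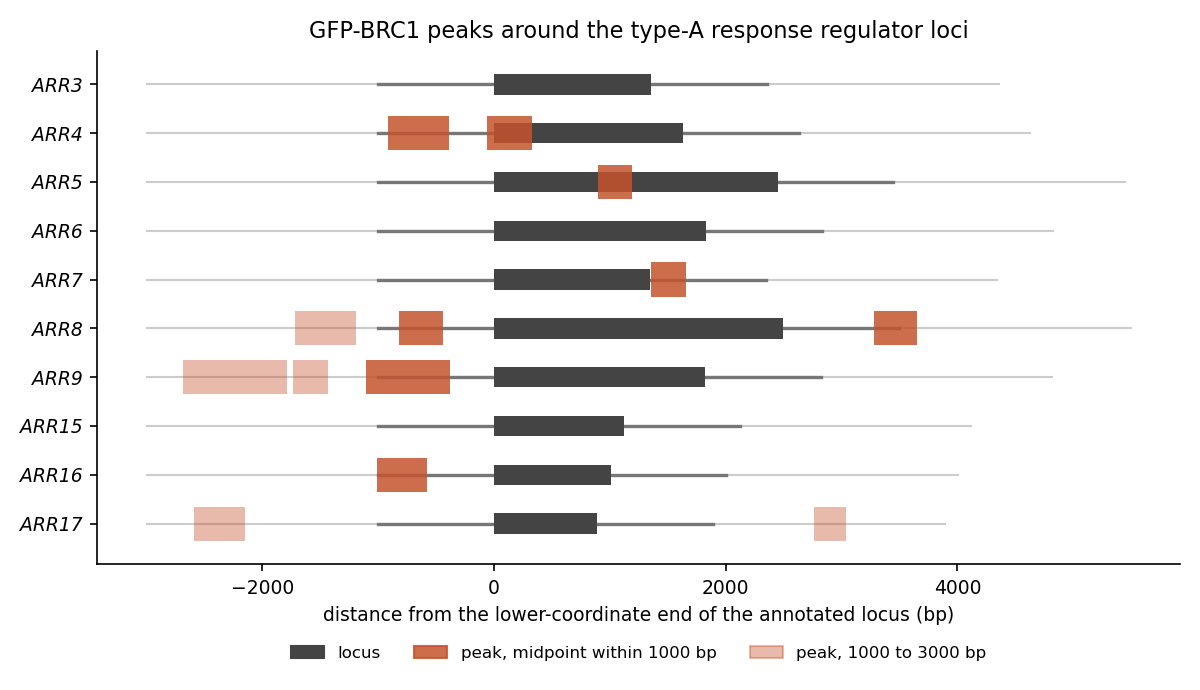
Annotated loci of the 10 type-A genes (dark boxes) and peaks of the GFP-BRC1 fusion (orange; paler where the midpoint is 1000 to 3000 bp away), drawn by distance in bp from the lower-coordinate end of each locus; grey lines reach 1000 and 3000 bp beyond the locus. Peaks touch or flank ARR4, ARR5, ARR7, ARR8, ARR9 and ARR16 within 1000 bp, and ARR3, ARR6 and ARR15 have none within 3000 bp.

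The peaks differed in where they sat. The tables carry no strand, so sides are given by coordinate and not as upstream or downstream. At ARR4 one peak (chr1:3442263-3442654) covered the lower-coordinate end of the locus, with its midpoint 132 bp inside, and a further peak (chr1:3441414-3441934) had its midpoint 653 bp below the locus. At ARR5 the peak (chr3:17759324-17759618) lay inside the locus, 1044 bp from its lower-coordinate end. At ARR7 the peak (chr1:6579185-6579490) had its midpoint 160 bp beyond the higher-coordinate end. For these 3 genes the next nearest locus was between 1354 and 2138 bp from the midpoint, so no other annotated gene was closer. EDS1 (AT3G48090), an immune regulator and the next locus to the ARR5 peak, had 11.9 FPKM in the induced line and 13.2 in brc1-2, a log2 change of -0.13 that missed the threshold (limma adjusted p = 0.217).

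At ARR8 and ARR9 the peaks were farther out. ARR8 had midpoints 628 bp (chr2:17221115-17221494) and 1458 bp (chr2:17220214-17220736) below the locus and 968 bp above it (chr2:17225210-17225580). The last was 128 bp from AT2G41312, which was the nearer gene and also fell, from 14.7 to 9.53 FPKM (log2 change -0.57, limma adjusted p = 0.0356). ARR9 had 3 peaks on the lower-coordinate side, with midpoints at 742, 1585 and 2236 bp, the nearest of them at chr3:21108512-21109233 and the widest, of 902 bp, the farthest away. The median width of all peaks was 398 bp. At ARR16 the midpoint of the peak (chr2:16969219-16969653) was 794 bp from the locus and 401 bp from AT2G40660, and the peaks within 3000 bp of ARR17 were also nearer to other genes. Counting a peak only for its nearest locus left 5 members with a peak within 1000 bp, ARR16 being the one dropped.

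The rest of the cytokinin pathway did not move as one. The list held 31 genes, of which 25 were listed and 24 tested. Of these 6 rose and 3 fell, beside 7.37% and 8.86% of all tested genes, and the median log2 change was -0.01. The 6 include ARR18, which passed the filter only through its induced libraries, so its call adds nothing as support. Peaks lay within 1000 bp of 11 of the 31, beside 16.3% of the tested genes with a position.

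Among the receptors, AHK4 (AT2G01830), the receptor best known for its role in roots, fell, and AHK2 and AHK3 did not pass the test. AHK4 had 7.19, 5.39 and 5.90 FPKM in induced libraries 1, 2 and 3 and 12.2, 10.4 and 9.18 FPKM in brc1-2 libraries 1, 2 and 3. The groups were separate, and the log2 difference was -0.70 (SE 0.14, limma adjusted p = 0.0234), a call lost without induced library 2 or 3 or brc1-2 library 1 or 2. AHK3 (AT1G27320), the main receptor of leaves, had 23.1 ± 1.92 FPKM in the induced line and 23.0 ± 2.12 in brc1-2, and the 95% interval of its log2 change was -0.23 to 0.24. AHK2 (AT5G35750) had 9.31 ± 0.97 and 8.44 ± 0.267 FPKM, with an interval of -0.10 to 0.35. None of the 5 tested phosphotransfer genes passed the threshold in limma, where 1 had an unadjusted p under 0.05 and voom called 1, in each case AHP1, and the largest difference with separate groups was that of AHP1 (AT3G21510), with 52.9 ± 4.77 and 67.4 ± 5.91 FPKM (log2 change -0.34, limma adjusted p = 0.0703). AHP6 (AT1G80100), a pseudo-phosphotransfer protein that inhibits the relay, failed the filter, with 1.12, 2.24 and 0 FPKM in the induced libraries from at most 17 derived fragments, and was not listed in brc1-2.

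Of the 11 type-B genes, the activators of the type-A genes, 7 were listed and tested. Of these 3 rose and none fell, beside 7.37% and 8.86% of all tested genes. At an unadjusted limma p under 0.05, 2 were lower, and voom called 0 lower. ARR18 (AT5G58080) had 4.99, 4.31 and 5.92 FPKM in induced libraries 1, 2 and 3, from 298, 241 and 529 derived fragments, and was not listed in any brc1-2 library. Taking each brc1-2 library at 10 fragments, about the smallest number any listed piece rests on, ARR18 would be 35.5-fold higher in fragments relative to depth. How many fragments an unlisted gene holds is not given, so this ratio is no lower bound. Since it passed the filter only through the group where it is high, its call (limma adjusted p = 0.0014) is no support for the count of type-B rises. Its locus had 2 peaks within 1000 bp. ARR11 (AT1G67710) rose from 2.04 ± 0.097 to 4.42 ± 0.539 FPKM (log2 change 0.83, SE 0.13, limma adjusted p = 0.0118), a call lost without induced library 1 or 3. ARR1 (AT3G16857), one of the chief activators in seedlings together with ARR10 and ARR12, had 25.6 ± 1.21 FPKM in the induced line and 20.2 ± 1.71 in brc1-2 (log2 change 0.33, limma adjusted p = 0.0416). That call was lost in 8 of 16 alternatives, both other scalings among them. ARR10 (AT4G31920) had 11.2 ± 0.497 and 14.1 ± 2.02 FPKM (limma adjusted p = 0.122), and ARR12 (AT2G25180) 23.1 ± 1.39 and 21.3 ± 2.66 FPKM (limma adjusted p = 0.479). The type-C genes ARR22 and ARR24 and the type-B genes ARR13, ARR19, ARR20 and ARR21 were not listed in any library.

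**Figure D4:**
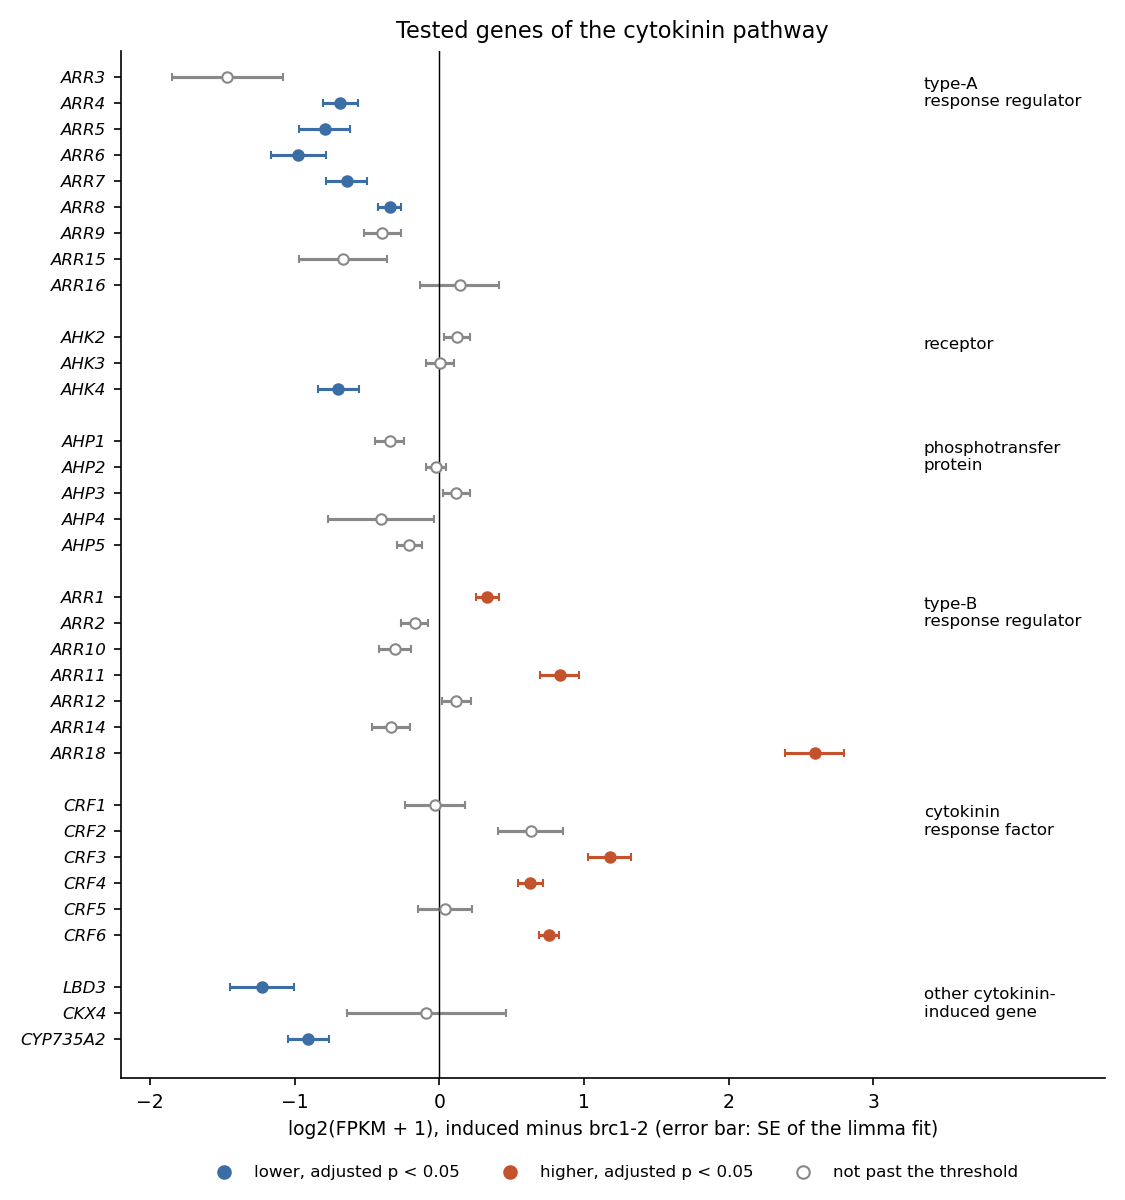
Log2(FPKM + 1) of the induced line minus brc1-2 (horizontal axis; error bars are SE of the limma fit on 3 libraries per group) for the 9 tested type-A genes and 24 other tested cytokinin genes, grouped by role. Filled blue points fell, filled orange points rose and open points were not past an adjusted p of 0.05; ARR18 was not listed in brc1-2, so its point depends on the added 1.

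The cytokinin response factors (CRFs) are AP2/ERF transcription factors of which several are induced by cytokinin. Of 6 tested, CRF3, CRF4 and CRF6 rose and none fell, beside 7.37% and 8.86% of all tested genes. At an unadjusted limma p under 0.05 or by voom, 0 were lower. A peak lay within 1000 bp of 5 of the 6 loci, all but CRF1. The share was 16.3% of the tested genes with a position and 44.9% of the genes that rose. CRF3 (AT5G53290) had 16.5, 16.6 and 16.5 FPKM in induced libraries 1, 2 and 3 and 7.98, 7.40 and 5.15 FPKM in brc1-2 libraries 1, 2 and 3. The log2 difference was 1.18 (SE 0.15, limma adjusted p = 0.00555). CRF6 (AT3G61630), linked to leaf senescence and oxidative stress, rose from 9.17 ± 0.467 to 16.2 ± 0.656 FPKM (log2 change 0.76, limma adjusted p = 0.00222). CRF4 (AT4G27950) rose from 11.8 ± 1.16 to 18.7 ± 0.752 FPKM (log2 change 0.63, limma adjusted p = 0.00703). These 3 calls held in all 16 alternatives each. CRF2 (AT4G23750), with 31.9 ± 3.8 and 20.8 ± 6.33 FPKM, had separate groups but missed the threshold (limma adjusted p = 0.122), and CRF5 (AT2G46310) had 9.84 ± 1.24 and 9.67 ± 2.33 FPKM.

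Of the 3 other genes known to rise with cytokinin, LBD3 and CYP735A2 fell, beside 8.86% of all tested genes. None of the 3 loci had a peak within 3000 bp, beside 27.7% of the tested genes with a position that had one. LBD3 (AT1G16530), a LOB-domain transcription factor, had 3.08, 2.09 and 1.90 FPKM in induced libraries 1, 2 and 3 and 6.65, 5.18 and 8.88 FPKM in brc1-2 libraries 1, 2 and 3. Its groups were separate, from as few as 29 derived fragments, and the log2 difference was -1.23 (SE 0.22, limma adjusted p = 0.0170). The call was lost without induced library 2 or 3 or brc1-2 library 1. CYP735A2 (AT1G67110), which makes trans-zeatin type cytokinins and is best known from roots, fell from 7.01 ± 0.566 to 3.31 ± 0.646 FPKM (log2 change -0.90, limma adjusted p = 0.0111), a call that held in all 16 alternatives. CKX4 (AT4G29740), a cytokinin oxidase, had 3.47, 11.0 and 19.2 FPKM in the induced libraries from 200, 215 and 436 derived fragments, and 8.86, 8.17 and 13.4 FPKM in brc1-2 from 789, 449 and 962. Its FPKM does not follow its fragments: the log2 change was -0.09 in FPKM (limma adjusted p = 0.931) and -1.28 when voom was run on the fragment numbers (limma adjusted p = 0.00889).

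Marker genes of organs were read beside these values, since type-A genes are active in roots as well as shoots. Root and green shoot markers were listed in every library, as the label of whole seedlings implies. The 5 root markers reported here were listed and tested. CASP1 and EXPA7 fell and none rose, beside 8.86% and 7.37% of all tested genes. The summed level of the 5 root markers was between 29.0 and 30.7 FPKM in the induced libraries and between 66.4 and 85.9 FPKM in brc1-2. Most of the difference came from CASP1 (AT2G36100), a protein of the root endodermis, with 19.2 ± 1.56 and 45.9 ± 7.55 FPKM, and from EXPA7 (AT1G12560), a root hair expansin, with 2.5 ± 0.638 and 17.3 ± 6.44 FPKM. The FPKM of the root meristem regulators PLT1 and PLT2 and of the root hair gene COBL9 overlapped between the groups, but did not follow their derived fragments. COBL9 had 88, 22 and 131 fragments in induced libraries 1, 2 and 3 and 659, 217 and 290 in brc1-2, which do not overlap. Its overlap in FPKM came from induced library 2, with 4.62 FPKM from 22 fragments. The fragment numbers of PLT1 and PLT2 overlapped as well. The 4 green shoot markers summed to between 15491 and 17774 FPKM in the induced line and between 14372 and 20546 FPKM in brc1-2. Most of that sum was RBCS1A, with 12622 ± 1107 FPKM in the induced line and 11058 ± 2860 in brc1-2, and its groups overlapped. LHCB1.2, LHCB2.1 and LHCA1 each had every induced library below every brc1-2 library, as in 18.1% of all tested genes. LHCB2.1 fell, from 770 ± 124 to 374 ± 24.1 FPKM. LHCB1.2 (limma adjusted p = 0.0603) and LHCA1 (limma adjusted p = 0.141) were not past the threshold. The 4 shoot meristem and boundary markers summed to between 1.66 and 5.59 FPKM in the induced line and between 1.40 and 6.15 FPKM in brc1-2, with CLV3 at 0 in all libraries. Only STM and CUC2 were tested, and neither passed. CUC1 was listed in the induced libraries alone, at 2.31, 2.32 and 0.572 FPKM from 10 to 12 fragments each. CUC2 had 1.13, 0 and 0 FPKM in the induced libraries and 3.02, 3.47 and 0 FPKM in brc1-2, from at most 32 fragments. The vascular markers SUC2 and APL summed to between 59.3 and 67.6 FPKM in the induced line and between 69.6 and 122.6 FPKM in brc1-2, and neither passed the test. That upper end rested on APL in brc1-2 library 1, with 47.9 FPKM from 1184 fragments. In brc1-2 libraries 2 and 3 APL had 15.8 FPKM from 644 fragments and 13.9 FPKM from 742. The part of the root markers' lower level in the falls of type-A genes, AHK4, LBD3 and CYP735A2 was not tested.

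Likeness to other genes was measured for ARR4, which had both the highest mean FPKM and the smallest p among the members, by the root-mean-square difference of log2(FPKM + 1), centred per gene, over the 6 libraries. The 3 closest of 21037 genes were AT5G01250 at 0.03, KOR2 (AT1G65610), a membrane-bound endoglucanase, at 0.04, and CLC-A (AT5G40890), a nitrate transporter of the vacuole, also at 0.04. CLC-A went from 38.1 ± 4.45 FPKM in brc1-2 to 23.2 ± 3.03 in the induced line, close to the proportion seen in ARR4. Among the members, ARR7 was the most like ARR4, with a difference of 0.09 and position 49. ARR5 stood at position 358, ARR6 at 598, ARR9 at 780 and ARR8 at 1527. Farther off were ARR15 at 9489, ARR3 at 15448 and ARR16 at 16609.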

How the data were processed

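Per the file headers, the deposited RNA tables give FPKM with confidence bounds in the Cufflinks layout. TopHat, Bowtie, Bowtie2, Cuffdiff, MACS2 and TAIR10 are named, with no role or version, per the submitters' processing notes. Signal sits on assembled pieces whose contig carries a transcript name. Annotated chromosome rows, all at 0, gave gene names and positions, here counted from 1. The FPKM of a gene's pieces was added (each member had at most 1 piece per library), and an unlisted gene was taken as 0. Fragment numbers were derived from the confidence bounds and cover counting error only.

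The authors deposited peak coordinates only. The ChIP-seq and Input libraries were not analysed here. A peak was near a gene when its midpoint lay in the locus extended by 1000 bp. Peaks and loci were taken to share TAIR10 coordinates.

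Genes that reached an FPKM of 1 in 3 or more of the 6 libraries were fitted on log2(FPKM + 1) with limma 3.58.1 (trended eBayes, no covariates) in R 4.3.3. P-values were adjusted by the Benjamini-Hochberg method over all 21038 genes, with a threshold of 0.05. The fit was tested on simulated data. Tables and figures used Python 3.11.15, scipy 1.17.1 and matplotlib 3.10.9.

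Members, the pathway and marker lists and the alternatives were chosen with earlier results of these data known. Named genes are the members, the pathway list, BRC1 and the 3 genes most like ARR4, along with the marker genes; 1 root marker of the list is not reported here, and genes named beside a peak were chosen after their positions were seen. Same-numbered libraries deviated from their group means with correlations of 0.082, 0.06 and 0.193, beside -0.223 to 0.145 for libraries of different number. These few values do not settle whether the numbers are pairs. The labels state no shared batch, so the main fit took none, and a fit with the replicate number as a block is given among the alternatives.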

Additional observations from a re-analysis of the deposited data

How the results depend on the processing

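Over 139 comparisons of the 9 tested members under the alternatives, 110 kept their direction and side of the threshold, 21 lost a call, 7 gained one and 1 reversed, the last being ARR16 at -0.14 without brc1-2 library 3 (range -0.14 to 0.33 when 1 library was left out). When 1 library was left out, the number of members that fell ranged from 0 to 5 (5 with all libraries, although without brc1-2 library 3 ARR15 took the place of ARR6), pathway genes that rose from 3 to 6 (6), pathway genes that fell from 1 to 4 (3) and all calls from 1609 to 2827 (3413). These fits use fewer samples. By voom on derived fragments 5 pathway genes fell, with AHP1 and CKX4 added. The members with a nearby peak numbered 3 in place of 6 within 500 bp and also 3 when peaks narrower than the median were left out, since both count fewer peaks. No member rose in any alternative. The log2 change of ARR3 ran from -4.07 by voom, which takes the unlisted library as 0 fragments, to -0.56 at a pseudocount of 5. With the replicate block 4 members fell: ARR5 and ARR7 lost their calls and ARR9 gained one, with log2 changes of -0.79, -0.64 and -0.39. The block gave 2989 calls over all genes. Not every library correlated best with its own number. The other scalings moved the median of all genes from 0.04 to 0.00 and changed the sign of none of the members.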
